A study of Rattus norvegicus with 16 samples.

Results

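The 10 genes described here, Arntl, Clock, Nr1d1, Nr1d2, Per1, Per2, Per3, Cry1, Dbp and Tef, belong to the circadian clock and its direct output. They were chosen by name, and all 10 were listed in each of the 16 libraries, among 14930 genes listed in any library and 13596 in all. The libraries came from intervertebral discs (IVDs) of 8 male Sprague-Dawley rats that were 8 weeks old at surgery. In every rat 2 lumbar discs (L4-5 and L5-6) were stabbed with a 27G needle (LDP, lumbar disc puncture) and pooled into 1 library, and the 2 discs above them, L2-3 and L3-4, were pooled as the uninjured control (CON). Rats 1 to 4 were killed 2 weeks and rats 5 to 8 at 8 weeks after surgery, which gives 4 CON and 4 LDP libraries per time point. A CON and an LDP library with the same number in their sample titles were taken as those of 1 rat. The CON discs therefore lay in the same operated animal, at other lumbar levels, and no library came from an unoperated rat. The hour of the day at which tissue was taken is not given in the sources used here. Tissue was dissected at room temperature and digested at 37 °C for under 4 h before cells were put on ice.

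The molecular clock is a feedback loop of transcription that runs in nearly every cell. The proteins of Arntl (also called Bmal1) and Clock bind DNA as a pair and switch on the Per and Cry genes, whose proteins then repress that pair. A second loop runs through Nr1d1 and Nr1d2, which encode the REV-ERB nuclear receptors, repressors of Arntl, while Dbp and Tef encode PAR bZIP factors that carry the rhythm to output genes. Disc and cartilage cells are known to hold such a clock, and because levels of these transcripts follow the hour of the day, a library from a single killing time gives only 1 phase of it.

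The stretch of 250 bases before the start site is shown for Arntl and Nr1d2, which passed a test below and hold the same motif, and for Per2, one of the members that differed between disc subclusters in all libraries compared. Sequences are those of RefSeq for build GRCr8, written 5′ to 3′ on the gene's strand. Capitals mark AGGTCA in Arntl and Nr1d2, the motif bound by ROR and REV-ERB receptors, and in Per2 first the D-box TTATGNAA, bound by PAR bZIP factors, and then CACGTT, a variant of the E-box bound by the Arntl and Clock pair.
Arntl, chr1:176766078-176766327, plus strand: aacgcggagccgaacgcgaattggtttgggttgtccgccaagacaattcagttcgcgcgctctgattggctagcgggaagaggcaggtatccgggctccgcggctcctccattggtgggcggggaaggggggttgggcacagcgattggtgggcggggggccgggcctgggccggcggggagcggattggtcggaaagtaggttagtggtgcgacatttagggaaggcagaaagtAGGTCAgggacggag
Nr1d2, chr15:9954784-9955033, plus strand: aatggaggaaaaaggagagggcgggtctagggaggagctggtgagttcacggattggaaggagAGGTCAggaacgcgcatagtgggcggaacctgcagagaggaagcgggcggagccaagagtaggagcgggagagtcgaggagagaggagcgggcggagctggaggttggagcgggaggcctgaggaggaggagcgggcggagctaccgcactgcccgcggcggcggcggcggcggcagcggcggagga
Per2, chr9:99496994-99497243, minus strand: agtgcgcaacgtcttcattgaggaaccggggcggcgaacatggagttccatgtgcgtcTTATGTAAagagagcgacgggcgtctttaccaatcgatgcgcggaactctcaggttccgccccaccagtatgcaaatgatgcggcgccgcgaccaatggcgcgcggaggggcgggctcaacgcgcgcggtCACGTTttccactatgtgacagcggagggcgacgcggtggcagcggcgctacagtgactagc

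Promoters of 9 of the 10 members were matched, and Cry1 was not. Searched on both strands in windows from 250 bases before to 50 bases after the start site, AGGTCA occurred in Arntl and Nr1d2 and in 16.2% of all 33469 promoters. The E-box CACGTG occurred in Nr1d1 and Tef (6.42% of promoters), CACGTT in Nr1d1 and Per2 (4.83%), and TTATGNAA in Per2 (3.66%). The cyclic AMP element TGACGTCA was found in 0 of the matched members and in 1.83% of promoters. No printed match overlaps another. These matches are letters in a window and no measurement of binding.

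Levels were taken in the cells that the authors had named as disc cells (the IVD class), 127077 of 149272 cells and 1313 to 14252 per library. By the study's description, clustering was run separately on CON and LDP cells and at each time point. The comparisons below therefore set separately drawn classes side by side, and the part of this in the differences was not tested. They are the mean over those cells of CPM, the UMIs (unique molecular identifiers, 1 per captured transcript) of a gene per 1000000 UMIs of its cell. The libraries were read from the 3′ end, so a level counts transcripts and was not divided by gene length. The median IVD cell held 4226 to 9889 UMIs, depending on the library. All 5 IVD markers were higher in this class than in endothelial cells, but the authors had named the class by these same genes. Pairs of libraries shared 0 to 75 cell barcodes, at most 0.720% of the smaller library.

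In IVD cells 5 members were abundant and 5 were low. Over the 16 libraries Arntl averaged 93.5 ± 24.1 CPM (SD, n = 16), Cry1 75.2 ± 17.5, Nr1d2 73.4 ± 20.7, Nr1d1 72.6 ± 30.3 and Clock 38.7 ± 8.31. Below them stood Per3 with 12.6 ± 1.23 CPM, Tef with 11.1 ± 2.89, Per2 with 7.20 ± 1.87, Dbp with 4.57 ± 1.25 and Per1 with 1.12 ± 0.440. The neighbours Arntl, Cry1, Nr1d2 and Nr1d1 lay within their spread of one another, as did Per3 and Tef. Per3 varied least, from 10.5 to 14.6 CPM. Nr1d1 varied 3.92-fold between its lowest and highest library, and Per1 5.74-fold. Per1 rested on only 4 to 88 UMIs per library, against 856 to 9295 for Arntl, so its values carry far more counting error than the others.

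**Figure D1:**
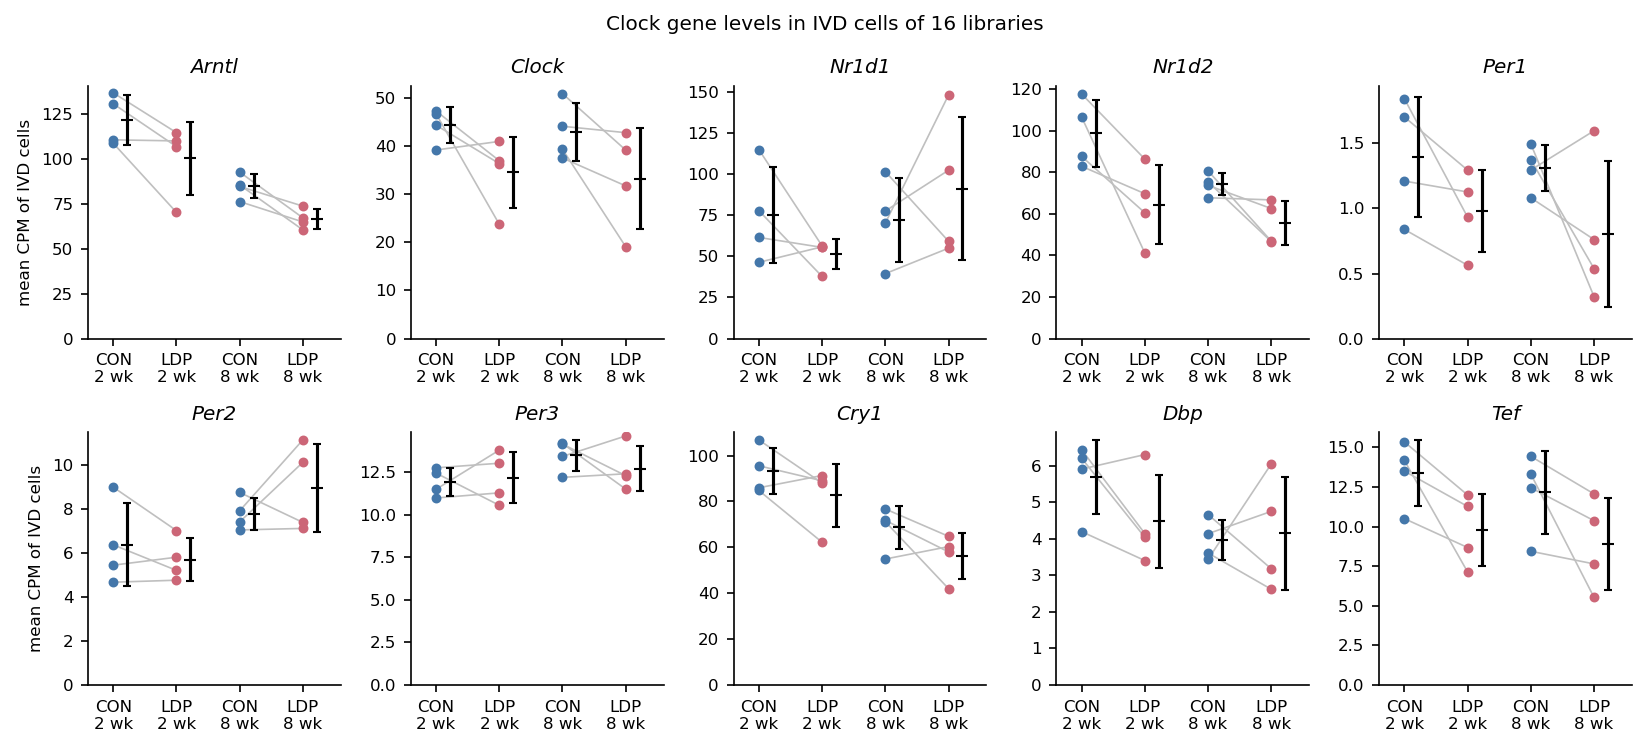
Mean CPM in IVD cells (y axis, from 0 in each panel) of the 10 clock genes in CON and LDP libraries at 2 and 8 weeks. Each point is 1 library, grey lines join the libraries of 1 rat, and black marks give the mean ± SD of 4 libraries; Arntl and Nr1d2 at 8 weeks are the members whose LDP points all lie below the CON points.

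CON and LDP libraries with the same title number were taken to come from the same animal at the same killing. They were compared with libraries of other rats to ask whether clock gene levels went with the animal. No member was called for a difference between rats. The limma F test of differences among the rats of a time point, relative to the spread between the libraries of a rat, called 0 of 10 members at adjusted p below 0.05 (adjusted p 0.845 to 0.930), where 0.305% of the 11150 genes tested were called. At unadjusted p below 0.05 it was also 0 of 10 members (p 0.128 for Per2 to 0.838 for Per3), against 6.57% of all genes. F was 0.438 for Per3 and from 1.04 (Nr1d2) to 2.19 (Per2) for the other members. With no difference between rats F lies near 1 on average, so an F somewhat above 1 does not by itself show a difference between them. edgeR and DESeq2 on counts likewise gave 0 members, adjusted or unadjusted, and so did limma for the 2-week and the 8-week rats alone (0.188% and 0.251% of all genes called). Of the 11150 genes edgeR called 30 and DESeq2 408, with 806 and 1288 at unadjusted p below 0.05.

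Taken gene by gene, the distance of a rat's CON from its LDP library was close to the distance between libraries of different rats. After removal of the group means, the CON and LDP libraries of the same rat differed on average by 0.15 log2 units in Arntl and those of different rats by 0.19. The ratio was 0.765 (one-sided exact permutation p = 0.208 over all pairings of CON with LDP libraries within the time points). For Per2 the distances were 0.21 and 0.29, with the lowest ratio, 0.753 (exact p = 0.167). For Nr1d1, the member with the largest distances on this scale, they were 0.53 and 0.54 (exact p = 0.455). Same-rat libraries were the closer ones in 8 of 10 members and in 53.7% of all genes, and 0 members reached a one-sided exact p below 0.05 (0.167 to 0.708), a level that 6.96% of all genes reached. Nr1d2 and Per3 were the members whose libraries lay farther apart within a rat than between rats, with ratios of 1.14 and 1.06.

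With a distance over all 10 members, the nearest LDP library to a CON library was that of the same rat in 4 of 8 rats, namely 1, 2, 6 and 8, where a random pick among the 4 LDP libraries of that time point would give 2 of 8 on average. In rats 4 and 5 the own LDP library was the farthest of the 4 of that time point. These rats also had the lowest LDP minus CON differences of Arntl, Clock, Nr1d2 and Tef. Their median log2 differences over all genes tested were the lowest too, −0.25 and −0.27, against −0.18 to 0.04 in the other rats. With 2 libraries per rat a difference between rats can be missed, and the smallest difference that the test could detect was not tested. At 2 weeks the limma F was 3.29 for Per2 and 3.24 for Arntl, with unadjusted p = 0.0643 and 0.0665.

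**Figure D2:**
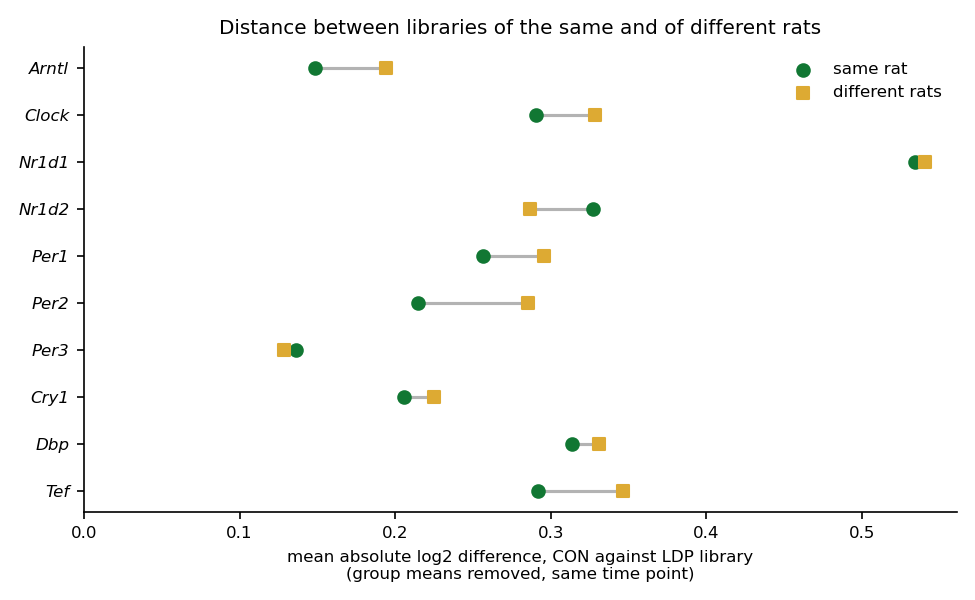
Mean absolute log2 difference in IVD cells between a CON and an LDP library of the same time point (x axis, group means removed), for libraries of the same rat (green circles) and of different rats (yellow squares). Circles lie left of squares for 8 of 10 members, with ratios from 0.753 to 1.14.

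Injured discs were then compared with uninjured discs of the same rat. The LDP discs lay below the CON discs in every rat, so injury and lumbar level cannot be told apart. The estimate was below 0 in 9 of 10 members, and after adjustment over all genes limma called Nr1d2 alone. Averaged over the time points the limma fit with the rat as block called 1 of 10 members lower at adjusted p below 0.05, where 5.72% of all genes were called lower and 7.8% in either direction. At unadjusted p below 0.05, 6 of 10 members were lower, against 23.3% of all genes. That count was 4 with edgeR (14.4% of all genes), with DESeq2 (14.3%) and after centring on the median gene (11.3%). In mean CPM most genes went the same way. By limma the median log2 difference of all genes was −0.12, and 68.8% of genes were below 0. With edgeR the median was −0.02 (52.6% below 0) and with DESeq2 −0.01 (50.9%). For the members with an unadjusted p below 0.05 the difference is given below also relative to the limma median. The median of the members was −0.28.

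Nr1d2, the second REV-ERB gene, fell in every rat. At 2 weeks the CON libraries of rats 1 to 4 held 83.0, 87.7, 117.8 and 106.7 CPM and their LDP libraries 69.8, 60.6, 86.4 and 41.2. At 8 weeks the CON libraries of rats 5 to 8 held 80.8, 67.8, 75.5 and 73.8 CPM and their LDP libraries 46.9, 66.8, 46.7 and 62.6. All 4 LDP libraries lay below all 4 CON libraries at 8 weeks, while the groups overlapped at 2 weeks. The fall was largest in rat 4 (−1.35 on the log2 scale) and smallest in rat 6 (−0.02). The mean log2 difference was −0.53 ± 0.13 (SE, n = 8 rats, limma adjusted p = 0.0408), a 0.690-fold level, or −0.41 relative to the median gene. The call was lost when log2 values were centred on the median gene (−0.40, limma adjusted p = 0.0548), in all cells of the library (−0.52, limma adjusted p = 0.109) and when any of rats 1, 2, 3, 5, 6, 7 or 8 was left out (limma adjusted p 0.0597 to 0.0966). It held without rat 4 (−0.42, limma adjusted p = 0.0418) and without rats 4 and 5 together (−0.36, limma adjusted p = 0.0397), and DESeq2 on counts gave an adjusted p of 0.00584. IVD cells of LDP were the deeper ones in 6 of 8 rats, with a median of 7924 against 5735 UMIs in rat 4 and 7936 against 5162 in rat 5; the part of depth was not tested.

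Nr1d1, the first REV-ERB gene, was not called in the injury comparison. Its CON libraries held 61.6, 115.1, 77.9 and 46.4 CPM at 2 weeks and 70.3, 39.5, 101.7 and 77.7 at 8 weeks. In LDP the levels were 55.5, 56.5, 37.8 and 55.9 CPM at 2 weeks and 148.3, 55.0, 59.3 and 102.5 at 8 weeks. The groups overlapped at either time, and the LDP library was the lower one in 4 of 8 rats. The log2 difference was −0.48 ± 0.29 at 2 weeks and 0.29 ± 0.29 at 8 weeks. The difference between these effects was 0.77 ± 0.40 (limma adjusted p = 1.00). This difference of effects was called for 0 of 10 members, where 0.0% of genes were called and 1.67% had an unadjusted p below 0.05; the number of members at that level was also 0, with 0 by edgeR and 1 by DESeq2.

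Of the activators, Arntl was lower in the LDP library of all 8 rats. Its CON libraries held 110.8, 137.0, 130.9 and 108.9 CPM at 2 weeks, and the LDP libraries of those rats 110.2, 114.8, 107.0 and 70.3. At 8 weeks the CON levels were 85.7, 76.4, 92.8 and 84.8 CPM and the LDP levels 60.6, 65.0, 67.3 and 73.8. As for Nr1d2, the groups separated at 8 weeks and overlapped at 2 weeks. The mean log2 difference was −0.32 ± 0.09 (limma adjusted p = 0.0533), or −0.20 relative to the median gene, and it did not pass the threshold. DESeq2 and CPM of summed counts put it just past (adjusted p = 0.0385 and 0.0497), and it was called in these 2 of 21 fits. edgeR gave −0.22 (adjusted p = 0.0798). Centring on the median gene gave −0.18 and all cells of the library −0.36 (limma adjusted p = 0.148 and 0.150). Without single rats the limma adjusted p was 0.0602 to 0.119. Clock, its partner, ranged from 37.5 to 50.8 CPM in CON and from 19.1 to 42.7 in LDP, and was lower in LDP in 7 of 8 rats (−0.40 ± 0.13, or −0.27 relative to the median gene, limma adjusted p = 0.0860). Its lowest values, 23.7 and 19.1 CPM, were those of the LDP libraries of rats 4 and 5.

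The output factor Tef was lower in LDP in 8 of 8 rats. Its CON libraries held 8.44 to 15.3 CPM and its LDP libraries 5.53 to 12.1, with the groups overlapping at both time points. The mean log2 difference was −0.43 ± 0.13 (limma adjusted p = 0.0669), or −0.31 relative to the median gene. Dbp, of the same family, had 5 of 8 rats lower and a difference of −0.15 ± 0.14 (limma adjusted p = 0.474).

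No Per or Cry member passed. Cry1 was lower in LDP in 6 of 8 rats (−0.24 ± 0.11, or −0.11 relative to the median gene, limma adjusted p = 0.162) and Per1 in 7 of 8 (−0.34 ± 0.13, or −0.21 relative to the median gene, limma adjusted p = 0.113). Per2 and Per3 were lower in 3 of 8 rats each, with differences of 0.02 ± 0.11 and −0.03 ± 0.09 (limma adjusted p = 0.898 and 0.840). The count of members lower in 8 of 8 rats was 3 (Arntl, Nr1d2 and Tef), against 8.3% of all genes. Members lower in at least 7 of 8 rats numbered 5, against 23.0%. LDP ranges lay wholly below CON ranges at 8 weeks for Arntl and Nr1d2 (11.4% of all genes) and at 2 weeks for 0 members (4.42%).

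**Figure D3:**
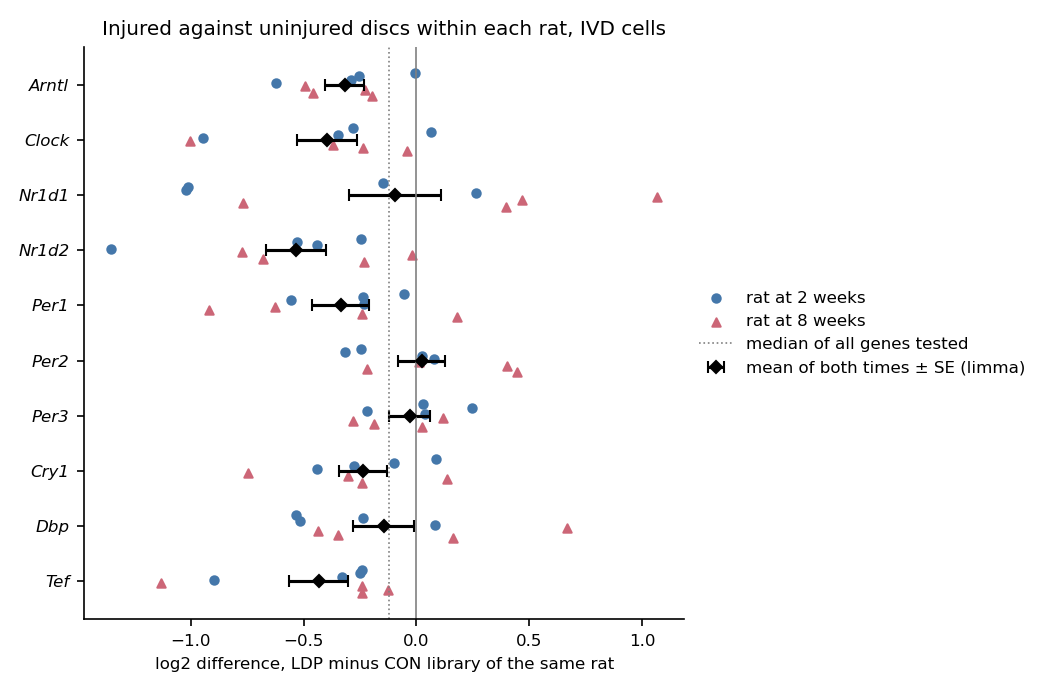
Log2 difference between the LDP and the CON library of each rat in IVD cells (x axis) for the 10 clock genes; blue circles are rats at 2 weeks, red triangles rats at 8 weeks, and black diamonds the limma mean ± SE over both times. All 8 points of Arntl, Nr1d2 and Tef lie below 0, the dotted line is the median of all genes (−0.12), and Nr1d1 spreads from −1.02 to 1.07.

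Within a single time point limma and edgeR called no member, and DESeq2 called Nr1d2 at 2 weeks. At 2 weeks 0 of 10 members were called (0.179% of all genes) and 3 had an unadjusted p below 0.05, all lower (7.36% of all genes). That count was 3 with edgeR (5.66%), 2 with DESeq2 (5.89%) and 1 after centring on the median gene (4.39%). At 8 weeks 0 of 10 were called (0.269%) and 4 had an unadjusted p below 0.05, all lower (17.1%). At that level edgeR and DESeq2 each gave 1 member lower and 1 higher at 8 weeks (9.17% and 9.31% of all genes lower), and centring on the median gene left 0 lower (6.91%). edgeR called 0 members at either time. For Nr1d2 at 2 weeks DESeq2 gave −0.58 (adjusted p = 0.0403), and it called 0 members at 8 weeks. Of the 11150 genes DESeq2 called 282 at 2 weeks and 573 at 8 weeks, and edgeR called 23 and 29. For Nr1d2 the limma differences were −0.64 ± 0.19 at 2 weeks (adjusted p = 0.252) and −0.43 ± 0.19 at 8 weeks (adjusted p = 0.235). For Arntl they were −0.29 ± 0.13 and −0.34 ± 0.13 (limma adjusted p = 0.403 and 0.176). Without rat 4 the differences at 2 weeks were −0.41 for Nr1d2 and −0.18 for Arntl (limma adjusted p = 0.398 and 0.637).

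The IVD class is a mixture, and at 2 weeks its numbered subclusters could be taken apart. Subcluster 3 had all 6 markers of the outer annulus fibrosus (OAF) higher than subclusters 1 and 2 together, and is called OAF-like here. The paper identified its OAF cells by genes among these 6. In subclusters 1 and 2 the LDP difference of Nr1d2 at 2 weeks was −0.68 (limma adjusted p = 0.358), in OAF-like cells −0.12 (adjusted p = 0.862), and in endothelial cells −0.19 (adjusted p = 0.978). For Arntl these differences were −0.33, 0.07 and 0.02 (limma adjusted p = 0.455, 0.900 and 0.991). Whether the subclusters differed in response was not tested. The summed level of the 6 OAF markers in IVD cells ranged lower in LDP than in CON, with overlap at both times. It was 8681 to 15020 CPM in CON and 6663 to 13310 in LDP at 2 weeks, and 2388 to 4268 and 1012 to 2751 at 8 weeks. At 2 weeks OAF-like cells were also counted within the IVD class of rats 1 to 4. In CON they were 1418 of 9741, 454 of 3398, 1140 of 12283 and 1210 of 11922 cells. In LDP they were 528 of 8397, 2335 of 14252, 992 of 10697 and 1347 of 8992 cells. The summed level of 5 markers of the nucleus pulposus (NP) was 353.5 to 403.5 CPM in CON and 490.6 to 505.8 in LDP at 8 weeks, with no overlap, and 249.2 to 381.7 and 253.2 to 592.9 at 2 weeks. At 2 weeks 8 endothelial markers summed to 31.1 to 153.2 CPM in CON and 13.9 to 27.2 in LDP, and 4 Schwann cell markers to 11.8 to 16.1 and 19.05 to 94.8, while at 8 weeks both sets overlapped. The part of these marker sets in the differences of the clock genes was not tested, and at 8 weeks, where the files number no subclusters, fewer OAF-like cells and less RNA per cell cannot be told apart.

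Between the time points, Arntl, Cry1 and Nr1d2 fell in uninjured discs. In the 8 CON libraries limma called 3 of 10 members lower at 8 than at 2 weeks and 0 higher, where 11.5% of all genes were called lower, 7.31% higher and 18.8% in either direction. Arntl averaged 121.9 ± 14.1 CPM at 2 and 84.9 ± 6.73 at 8 weeks (n = 4 each), a log2 difference of −0.51 ± 0.10 (limma adjusted p = 0.00960). Cry1 averaged 93.3 ± 10.2 and 68.7 ± 9.495 CPM (−0.44, limma adjusted p = 0.0310) and Nr1d2 98.8 ± 16.3 and 74.5 ± 5.33 (−0.39 ± 0.12, limma adjusted p = 0.0465). For these 3 members every CON library at 8 weeks lay below every CON library at 2 weeks, as for 14.3% of all genes. Dbp averaged 5.69 ± 1.02 and 3.97 ± 0.554 CPM (−0.42, limma adjusted p = 0.0641), and it was called lower by edgeR (−0.54, adjusted p = 0.0357), by DESeq2 (−0.54, adjusted p = 0.0160) and with CPM of summed counts (−0.46, limma adjusted p = 0.0354), so that edgeR and DESeq2 each called 4 members. Of the 11150 genes edgeR called 2414 (1364 lower) and DESeq2 3034 (1580 lower). In all cells of the library the difference of Dbp was −0.18 (limma adjusted p = 0.632). Per2 was at 6.37 ± 1.88 and 7.79 ± 0.738 CPM (0.28, limma adjusted p = 0.256), and without rat 2 it was called higher at 8 weeks (0.44, limma adjusted p = 0.0413).

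The call of Arntl held in every alternative within the CON libraries. That of Cry1 was lost in all cells of the library and without rat 1, 3, 5, 6 or 7 (limma adjusted p 0.0507 to 0.0947), and that of Nr1d2 without rat 3, 4, 5, 6, 7 or 8 (0.0667 to 0.129), and also in all cells, with no limit on low values, after centring and with no limma trend (0.0513 to 0.0730). In the LDP libraries 0 of 10 members were called (4.36% of all genes). There Arntl averaged 100.6 ± 20.4 CPM at 2 and 66.7 ± 5.53 at 8 weeks (−0.56 ± 0.18, limma adjusted p = 0.0964). Cry1 averaged 82.6 ± 13.7 and 56.3 ± 9.93 (−0.55, limma adjusted p = 0.118), and Nr1d2 64.5 ± 18.9 and 55.7 ± 10.5 (−0.18, limma adjusted p = 0.681). Per2 averaged 5.70 ± 0.979 and 8.95 ± 2.00 CPM (0.56, limma adjusted p = 0.121), with every LDP library at 8 weeks above those at 2 weeks, as for 6.28% of all genes. The reverse, all libraries at 8 weeks below those at 2 weeks, held for 0 members and 9.5% of all genes. The summed level of the 5 IVD markers was 17210 to 28740 CPM in the libraries at 2 weeks and 9031 to 13590 at 8 weeks. In the CON libraries the 6 OAF markers summed to 8681 to 15020 CPM at 2 and 2388 to 4268 at 8 weeks, and the 8 endothelial markers to 31.1 to 153.2 and 16.05 to 19.6, without overlap. The part of these marker sets in the time differences was not tested. Different rats were used at the later time, and they were older, so time after surgery, age and any run or hour of killing cannot be told apart.

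Among clock genes outside the 10 members, Cry2 and Rora were called lower in both the injury and the time comparison, Wee1 and Npas2 in the injury comparison and Bhlhe40 in the time comparison. Of 18 other genes of the clock machinery, 15 were tested, and the rat test called 0 (lowest adjusted p 0.466). Averaged over the time points 4 of 15 were lower in LDP and 0 higher (5.72% and 2.08% of all genes); they are named here after their values were seen. Cry2, a further repressor, fell by 0.64 ± 0.13 on the log2 scale (limma adjusted p = 0.0235), from 67.3 ± 9.22 to 43.8 ± 9.33 CPM at 2 weeks and from 45.1 ± 5.14 to 29.6 ± 10.9 at 8 weeks. Wee1, a cell-cycle kinase gene under clock control, fell by 0.44 ± 0.09 (limma adjusted p = 0.0276). Npas2, which can stand in for Clock, fell by 0.36 ± 0.08 (limma adjusted p = 0.0274), and Rora, an activator of Arntl, by 0.34 ± 0.08 (limma adjusted p = 0.0356). Each of these 4 was lower in LDP in 8 of 8 rats, and over the alternatives Cry2 was called in 16, Wee1 in 15, Npas2 in 11 and Rora in 10 of 21 fits, with no change of sign.

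In the CON libraries 3 of the 15 were lower at 8 than at 2 weeks and 0 higher (11.5% and 7.31% of all genes). Bhlhe40, a repressor of the Arntl and Clock pair, averaged 129.9 ± 28.7 and 61.7 ± 10.8 CPM (−1.05 ± 0.17, limma adjusted p = 0.00371). Rora averaged 99.3 ± 17.2 and 63.3 ± 2.24 CPM (−0.63, limma adjusted p = 0.00652), and Cry2 67.3 ± 9.22 and 45.1 ± 5.14 (−0.56, limma adjusted p = 0.0127). The CON libraries enter both the injury and the time comparison, so these lists of genes are not independent of each other.

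**Figure D4:**
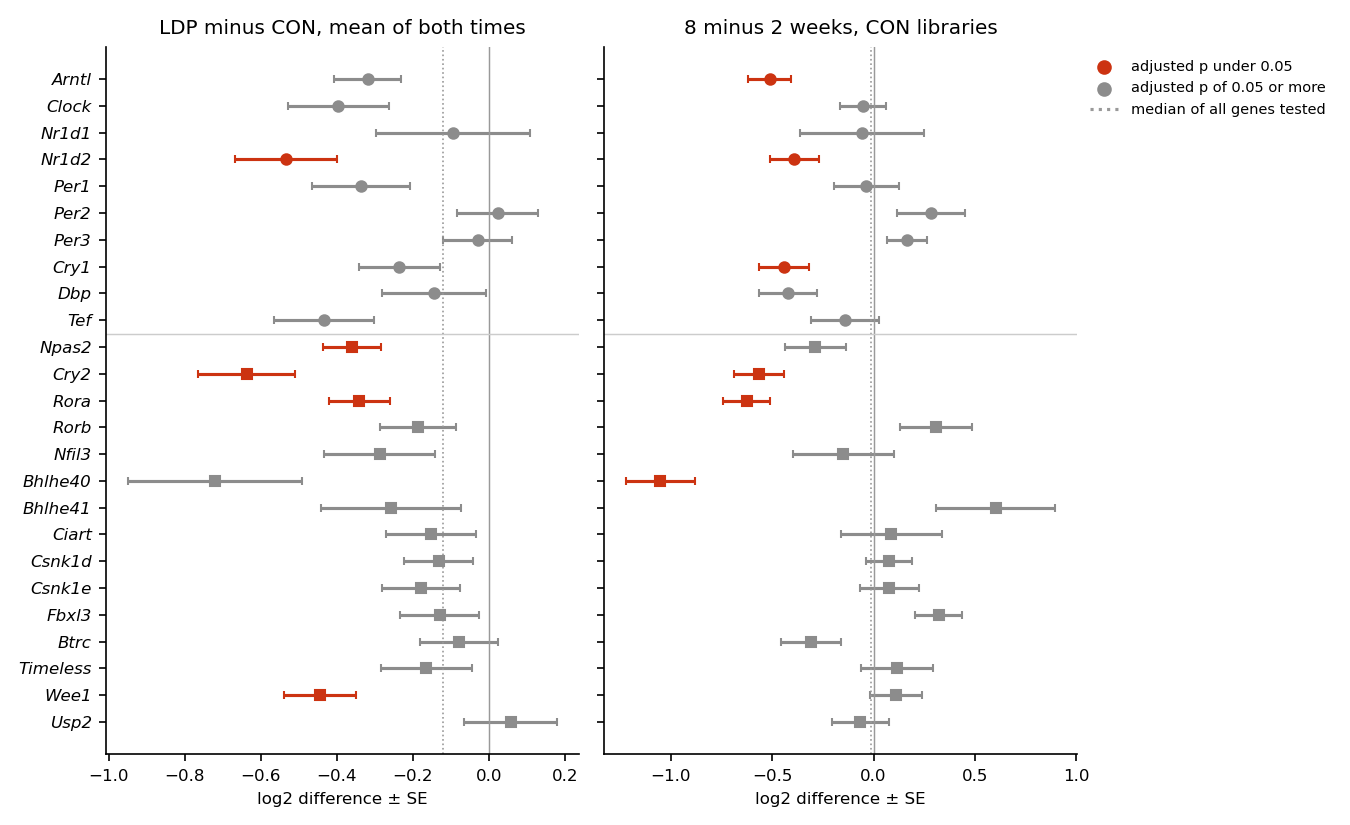
Limma log2 differences ± SE in IVD cells for LDP minus CON averaged over both times (left x axis) and for 8 minus 2 weeks in CON libraries (right x axis), for the 10 members (circles) and 15 other clock genes (squares). Red marks have an adjusted p below 0.05, all of them below 0: Nr1d2 and 4 other genes at left, 3 members and 3 other genes at right; dotted lines give the median of all genes.

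Lists of genes that respond to handling were read beside the members. Of 5 glucocorticoid-response genes tested, and of 8 immediate-early genes, 0 were called by the rat, injury or time tests (lowest adjusted p 0.0729 and 0.0734). The summed immediate-early level in IVD cells was 2164 to 7955 CPM in CON and 1657 to 2341 in LDP at 2 weeks, and 2236 to 3773 and 1324 to 3662 at 8 weeks. Of 5 genes of the cold and heat response, Hspa1a and Dnajb1 were higher at 8 weeks in CON (limma adjusted p = 0.00517 and 0.00453), where 7.31% of all genes were called higher. In the injury comparison 0 of these 5 were called. Cirbp, a cold-inducible RNA-binding protein gene, had a difference of 0.49 (limma adjusted p = 0.0944). Its LDP library was the higher one in 8 of 8 rats, as for 3.59% of all genes. Rbm3 had a difference of 0.04, and Hspa1a, Hsph1 and Dnajb1 had −0.33, −0.38 and −0.12. The part of these responses in the clock gene values was not tested.

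Arntl and the 9 other members were next correlated over the 8 rats, each rat's value being the mean of its libraries less the mean of its time point. Per1 had the closest relation, with Pearson r = 0.88 and Spearman rho = 0.90 (two-sided exact permutation p = 0.00174 for each, the smallest of all permutations within time points, adjusted p = 0.0156 over 9 relations). Without rats 4 and 2, farthest from the median of Arntl, r was 0.70. Per1 had few counts, and r was 0.80 with CPM of summed counts (exact permutation adjusted p = 0.338) and −0.33 in all cells of the library. For Cry1 r was 0.72 and for Dbp −0.70 (exact permutation adjusted p = 0.318 for each), and the remaining relations had adjusted p of 0.347 to 0.977 by the same exact test. Among all genes 8.5% had an exact p below 0.05 for this relation, and 2.24% had an r at least that of Per1. The relations were also computed within each arm, and no difference between the arms was tested. For Nr1d1 r was 0.93 in the CON libraries (exact permutation adjusted p = 0.0313, and 0.125 for Spearman's rho of 0.90) and −0.15 in the LDP libraries, where rats 4 and 5 decided its sign (0.87 without them). For Cry1 it was 0.09 in CON and 0.86 in LDP libraries, and for Clock −0.69 and 0.75 (exact permutation adjusted p = 0.0469 in LDP for each). Per1 had 0.51 in CON and 0.69 in LDP libraries (exact permutation adjusted p = 0.581 and 0.0469). By Spearman's rho in LDP libraries the exact permutation adjusted p was 0.0313 for Cry1 and for Per1, and 0.25 for Clock. At an exact p below 0.05 stood 11.3% of all genes in CON and 33.0% in LDP libraries. Without rats 4 and 5, farthest from the median of Arntl in LDP, r was 0.60 for Cry1 and 0.23 for Clock.

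Over the 16 libraries, with the mean of each time point removed, the genes whose pattern was most like that of Arntl were Bach1 (Pearson r = 0.97), Cd28 (0.97), Polg (0.96), Gcc1 (0.96) and Prdm4 (0.96). Among the members Nr1d2 was nearest to Arntl (0.79, rank 895 among genes), then Per1 (0.77, rank 1146), Cry1 (0.75) and Clock (0.68), and Dbp was farthest (−0.27). For Dbp the nearest genes were Mrgprf (0.79), Glb1 (0.79), Gorasp2 (0.78), Oaf (0.77) and Fbxl8 (0.74). These r are descriptions across 16 libraries that share rats in pairs and differ in depth, and 11150 genes were searched.

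Across the authors' cell classes the members had distinct patterns, described here with no test because the classes were drawn from the same values. Levels are means over the libraries with at least 50 cells of the class, 12 for endothelial, 9 for myeloid and 9 for lymphoid cells. The CON libraries at 8 weeks have no endothelial class. As a gauge of free RNA, the disc collagen gene Col2a1 stood in these classes at a median of 7.42, 8.82 and 4.49% of its level in IVD cells of the same library.

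Arntl was highest in IVD cells (93.5 ± 24.1 CPM). Endothelial cells held 62.8 ± 20.1 CPM, myeloid cells 29.1 ± 17.6 and lymphoid cells 8.45 ± 2.12. It was below the IVD level in every library compared, with a median lymphoid level of 11.2% of that in IVD cells. Clock ran differently, with 66.6 ± 13.99 CPM in endothelial cells, above the IVD level in 12 of 12 libraries, 36.4 ± 14.8 in myeloid and 8.12 ± 5.20 in lymphoid cells. For Nr1d1 the endothelial mean was 23.5 ± 6.57 CPM, the myeloid 12.4 ± 9.76 and the lymphoid 27.2 ± 13.0, all below its IVD mean of 72.6. Nr1d2 was at 65.9 ± 19.0, 30.2 ± 17.7 and 45.5 ± 17.1 CPM in endothelial, myeloid and lymphoid cells.

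Dbp and Per1 had more transcript in blood-lineage cells than in IVD cells. Dbp averaged 4.57 ± 1.25 CPM in IVD and 4.07 ± 1.96 in endothelial cells, but 18.3 ± 5.55 in myeloid and 25.9 ± 6.47 in lymphoid cells, above the IVD level in 9 of 9 libraries for each. Per1, at 1.12 ± 0.440 CPM in IVD cells, reached 7.87 ± 4.49 in the lymphoid, 5.00 ± 2.25 in the endothelial and 4.975 ± 5.145 in the myeloid class. It lay above the IVD level in 11 of 12 endothelial libraries and in 8 of 9 libraries for each blood-lineage class, and one lymphoid library held 0 CPM. Cry1 reached 68.2 ± 19.9 CPM in lymphoid cells, close to its IVD level, and 46.0 ± 13.1 in endothelial cells. Per2 was at 15.99 ± 5.49 CPM in endothelial and 1.87 ± 2.04 in lymphoid cells. Tef was at 15.1 ± 7.57 to 16.2 ± 5.62 CPM in these 3 classes, above the IVD level in 10 of 12, 5 of 9 and 7 of 9 libraries. Over all cells of a library Dbp ranged from 3.51 to 10.5 CPM, and in the LDP library of rat 3, the highest, it was 10.5 CPM over all cells and 4.05 CPM in IVD cells.

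Inside the IVD class at 2 weeks Per1, Per2 and Clock were higher in the OAF-like subcluster than in subclusters 1 and 2, and both REV-ERB genes were lower. Per2 had a median of 20.2 CPM over the libraries in OAF-like cells (13.2 to 27.6) and averaged 4.18 ± 0.843 CPM in subclusters 1 and 2 (n = 8 libraries), a mean log2 ratio of 2.00 that ranged from 1.36 to 2.36 on the log2(CPM + 1) scale, which understates ratios of low genes such as Per1. Per1 averaged 3.58 ± 0.762 and 0.861 ± 0.505 CPM (log2 ratio 1.33, and a median level of 573.3% of that in subclusters 1 and 2 against 465.1% for Per2), and Clock 59.0 ± 11.8 and 36.7 ± 7.58 (0.67), each higher in OAF-like cells in 8 of 8 libraries. Dbp was higher in 7 of 8 libraries (0.68). In the other direction, Nr1d1 averaged 25.1 ± 3.99 CPM in OAF-like cells and 68.8 ± 27.5 in subclusters 1 and 2 (log2 ratio −1.35), and Nr1d2 41.8 ± 6.75 and 86.7 ± 26.4 (−0.99), each lower in 8 of 8 libraries. Arntl (−0.28), Cry1 (−0.13), Per3 (0.05) and Tef (0.29) had smaller ratios, with Per3 above 0 in 4 of 8 libraries, and the sign of Per3 turned with CPM of summed counts (−0.09).

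**Figure D5:**
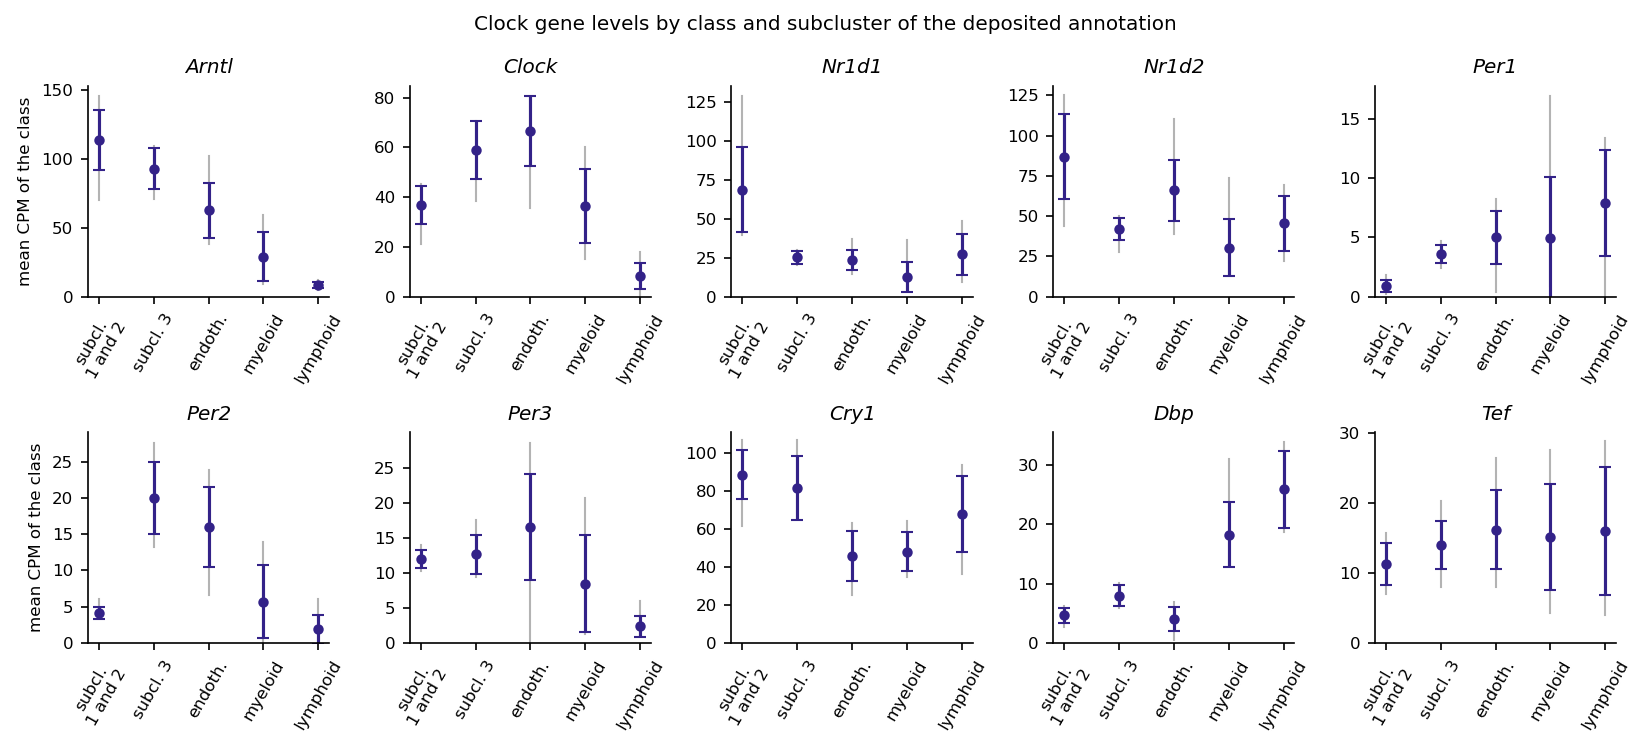
Mean CPM (y axis, from 0) of the 10 clock genes in IVD subclusters 1 and 2, in OAF-like subcluster 3 (8 libraries each, 2 weeks) and in endothelial (12), myeloid (9) and lymphoid (9 libraries) cells. Dots with dark blue caps are means ± SD over libraries and grey lines the range; Per2 is highest in subcluster 3 (median 20.2 CPM), Nr1d1 in subclusters 1 and 2 (68.8), and Dbp in lymphoid cells (25.9).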

How the data were processed

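The members and lists were chosen with earlier results of these data known. Per the study's methods, the authors used Partek Flow to drop cells at 10% mitochondrial features or more and cells outside 500 to 3000 genes or 500 to 30000 UMIs. The deposited gene values are log2(CPM + 1) per cell, made by the authors from counts, and build rn6 is named in the submitters' processing notes. The aligner is not given in the sources used here. Each cell's deposited total is a sum of expected counts, and its number of expressed genes is a count and its mitochondrial reads a percent, as deposited. Dividing out the total returned whole counts, within 0.02, for 99.4% of values.

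CPM was averaged over the IVD cells of a library. For 11150 genes with a mean CPM of at least 1, limma 3.58.1 (trend) was fitted to log2(mean CPM + 1) with the rat as block and LDP at each time (6 residual degrees of freedom), so fold changes of low genes are understated; p-values were adjusted by Benjamini-Hochberg over all genes. Times were compared in the CON libraries without block. Tests on summed recovered counts used edgeR 4.0.16 and DESeq2 1.42.0, and the limma, edgeR and DESeq2 fits were tested on simulated data. The pairing of CON with LDP libraries was read from the numbers in the sample titles. As a check, correlations of deviations from the group means over all genes were −0.15, 0.20, 0.14, −0.19, 0.14, 0.47, 0.04 and 0.38 for rats 1 to 8. Every member and every clock gene listed was read; the 5 nearest genes of Arntl and Dbp were named by Pearson r. Alternatives were other pseudocounts (0.5 and 5), limits, scalings, cells and tools, no block, and leaving out each rat. Added after the data were seen were the fit without rats 4 and 5, subclusters 1 and 2 only, the 2-week libraries alone and the time comparison in LDP libraries. Doublets were not removed here.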

Additional observations from a re-analysis of the deposited data

Results flagged for a closer look

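A library far from the other 3 of its group was found in 2 of the 40 sets of 4 libraries (10 members in 4 groups), where chance gives about 1 in 20. Nr1d1 in LDP at 2 weeks was 37.8 CPM in rat 3, with the other 3 libraries at 55.5 to 56.5 CPM (gap over range 0.949, above the 95% Dixon limit for 4 samples). Cry1 in LDP at 2 weeks was 62.2 CPM in rat 4, with the others at 88.0 to 91.3 CPM (gap over range 0.888).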

How the results depend on the processing

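Of the counts of called members, 118 of 141 alternative values stayed within 1.5 times the reported count, among them every value for differences between rats, same-rat distances, LDP at 8 weeks and the difference of LDP effects (0 members each). For LDP averaged over both times (1 member) the count was 0 in all cells of the library and after centring on the median gene, 2 with CPM of summed counts and with DESeq2, and 0 to 1 without single rats. For LDP at 2 weeks DESeq2 gave 1 member in place of 0. For 8 against 2 weeks in CON libraries (3 members) the count was 1 in all cells, 1 to 5 without single rats, 1 without rats 4 and 5 together and 0 in LDP libraries. For the relations of Arntl (1 called) it was 0 in all cells, 0 with summed counts and 3 in the LDP libraries alone. The cause of these changes was not tested. Without the rat block, pairing ignored, the counts of members did not change (1 for the mean LDP effect, with Nr1d2 at an adjusted p of 0.0288 by limma). Genes called for that effect split into 232 higher and 638 lower in the reported fit, 587 and 291 after centring, 460 and 395 with edgeR, and 1012 and 812 with DESeq2, whose median log2 differences over all genes were −0.12, 0.02, −0.02 and −0.01. The total was 84 in all cells and 155 to 798 without single rats.

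Signs turned in members that passed no test in that comparison. For the mean LDP effect these were Per2 (−0.04) and Dbp (0.16) in all cells, Nr1d1 (0.0428) and Per3 (0.11) after centring, and Per3 with edgeR (0.11) and DESeq2 (0.12). For LDP at 2 weeks Arntl turned in subcluster 3 (0.0668) and endothelial cells (0.0220). Clock turned for time without rats 4 and 5 together (0.0118), Nr1d1 for time in LDP libraries (0.72), and Per3 for subcluster 3 with summed counts (−0.0922). Without single rats, the mean LDP effect ran from −0.0248 to 0.0856 for Per2, −0.0669 to 0.0102 for Per3 and −0.22 to 0.0813 for Nr1d1, and the time difference from −0.26 to 0.20 for Nr1d1, −0.16 to 0.0532 for Per1, −0.13 to 0.00867 for Clock and −0.24 to 0.0118 for Tef. Fits on NP or IAF cells alone were not run because the files number the subclusters without names, and subcluster and endothelial fits were possible at 2 weeks only.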
